A study of Homo sapiens with 16 samples.

Results

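The 9 genes HLA-B, HLA-C, HLA-E, B2M, TAP1, TAP2, TAPBP, PSMB8 and PSMB9 encode parts of the MHC class I antigen presentation pathway. They were taken by symbol from the expression table and matched by gene identifier to the count table, which held 63677 identifiers. Where a symbol had several identifiers, the one with the most reads was kept. In each case it was the only identifier of that symbol with reads, and all 9 members passed the filter on low counts that left 17464 genes for testing.

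RNA was sequenced from 2 colon cancer cell lines in 16 libraries, which form 8 groups of 2 libraries numbered I and II. SW480 comes from a primary colon adenocarcinoma and SW620 from a lymph node metastasis of the same disease. The series asks how estrogen signalling through estrogen receptor beta (ERB, gene ESR2) acts in these cells. The SW620 groups were ERB-transduced cells given 10 nM estradiol (E2) for 24 h, ERB-transduced cells given DMSO for 24 h, ERB-transduced cells without treatment, empty vector (EV) cells and untransduced parental cells. The SW480 groups were ERB-transduced, EV and parental cells, none of them treated. Cells of both lines grew in DMEM with 10% serum. The promoter that drives ERB in the vector, and whether transduced cells were pools or single clones, are not given in the labels, and nothing there says that libraries I and II came from separate cultures. The p-values therefore measure the spread between these libraries, which may be technical.

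As background, MHC class I molecules show peptides from inside the cell to CD8 T cells. Proteasomes cut proteins into peptides, and the immunoproteasome subunits PSMB8 and PSMB9 replace constitutive subunits and change which peptides are made. TAP1 and TAP2 together form the transporter that moves peptides into the endoplasmic reticulum, where tapasin (TAPBP) helps load them onto a heavy chain (HLA-B, HLA-C or HLA-E) that is paired with beta-2-microglobulin (B2M). Interferon gamma and NF-kappa B raise many of these genes, NLRC5 is a transactivator of class I genes, and tumours often carry less of the pathway.

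The libraries held 12743940 to 18948283 reads. ESR2 stood at 10.99 and 9.84 CPM (reads scaled to library size with TMM factors) in the E2 libraries, 7.02 and 5.77 CPM in the DMSO libraries, 9.76 and 9.50 CPM in untreated SW620 ERB libraries and 16.2 and 14.1 CPM in SW480 ERB libraries. The EV and parental libraries had 0 to 4 ESR2 reads each. Of 9 colon epithelium markers, 8 were detected (CDX1 had no read), summing to 2913 to 30583 CPM in a library, against 0.55 to 4.52 CPM for 7 leukocyte markers, 3.64 to 21.9 CPM for 6 fibroblast markers and 0.508 to 3.99 CPM for 4 endothelial markers. TYROBP of the leukocyte list, COL3A1 of the fibroblast list and PECAM1 of the endothelial list had no read.

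The libraries labelled SW480 EV go against their label in one respect. The median of 249 genes that were at least 8-fold higher in SW480 than in SW620 parental cells, members left out, stood at 1.75% and 1.65% of the SW480 parental level in these libraries. It stood at 14.1% and 20.0% in the SW480 ERB libraries and at 0.974 to 1.35% in the SW620 libraries. For 19 genes chosen the same way as higher in SW620, the median was 26.6% and 66.2% of the SW620 parental level in the libraries labelled SW480 EV, 50.8% and 37.8% in SW480 ERB libraries and 3.99% and 4.19% in SW480 parental libraries. Comparisons that do not use the libraries labelled SW480 EV were also fitted without them.

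Libraries also differed in how their reads were spread over GC-rich and GC-poor transcripts, measured here as the median log2 deviation of the 20% of genes with the highest GC content minus that of the 20% with the lowest (GC tilt). The tilt was 2.89 and 1.27 in the SW480 ERB libraries, -0.80 and 2.53 in the libraries labelled SW480 EV and -0.40 and -2.39 in SW480 parental libraries. It was 0.14 and 0.66 in the E2 libraries, -1.59 and -2.20 in the DMSO libraries, and between -0.59 and 0.71 in the other SW620 libraries. The members sit at different places on this axis, with 39.4% GC in the B2M transcript and 60.0% in that of HLA-C. Within the 8 groups, the library with the higher tilt had the higher level of HLA-C, HLA-E, TAP1 and TAPBP in 8 of 8 groups and the lower level of B2M in 7 of 8. Each comparison of the members is therefore given from the fit without offsets and from a fit whose offsets remove each library's trend with GC content and length, called the GC-adjusted fit below. Its part in each difference between groups was not otherwise tested.

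**Figure D1:**
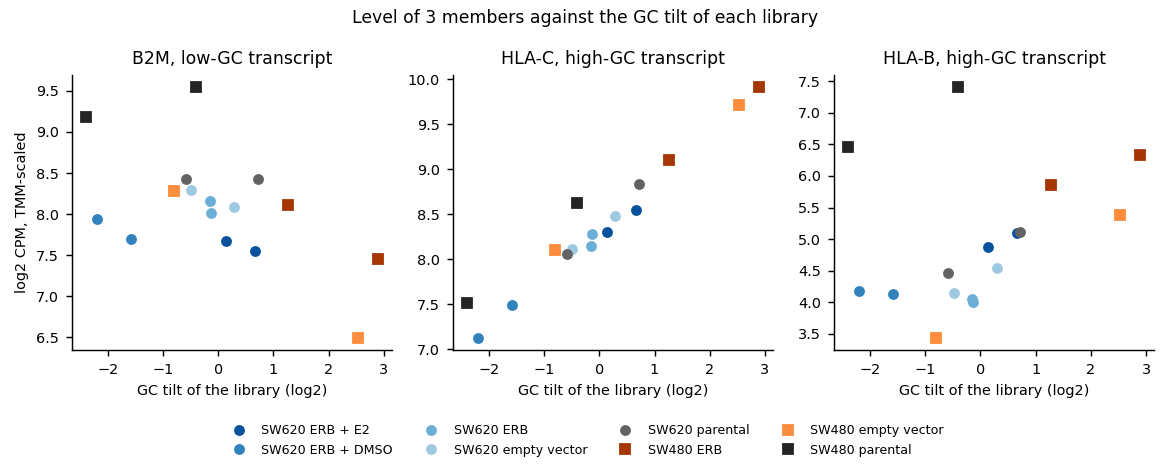
Log2 CPM of B2M, HLA-C and HLA-B (vertical) against the GC tilt of each of the 16 libraries (horizontal, log2), with colours for the 8 groups, circles for SW620 and squares for SW480. HLA-C is higher in the library with the higher tilt in 8 of 8 groups and B2M is lower in 7 of 8, while HLA-B of the SW480 parental libraries stands above the other points at its tilt.

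The members on chromosome 6 number 8, and B2M is on chromosome 15. Start regions of 8 members, all but HLA-E, were read from RefSeq promoters of build GRCh38.p14, which run from 250 bases before to 50 bases after a gene start. The regions of HLA-B and PSMB9, which carried the largest differences between the parental lines, are printed with those of HLA-C and TAP1, their closest partners in the read ratios. They are the reference sequence, not that of these cell lines. Capitals mark matches, on either strand, to GAAANNGAA (core of the interferon-stimulated response element), GGGNNTTCC (kappa B), CCAAT (Y box), TGACG (X2 box, or core of a CRE) and TTCNNNGAA (STAT site, which reads the same on both strands). The 300 bases of HLA-B are chr6:31357130-31357429 (minus strand), of HLA-C chr6:31272043-31272342 (minus), of PSMB9 chr6:32853942-32854241 (plus) and of TAP1 chr6:32853655-32853954 (minus).
HLA-B: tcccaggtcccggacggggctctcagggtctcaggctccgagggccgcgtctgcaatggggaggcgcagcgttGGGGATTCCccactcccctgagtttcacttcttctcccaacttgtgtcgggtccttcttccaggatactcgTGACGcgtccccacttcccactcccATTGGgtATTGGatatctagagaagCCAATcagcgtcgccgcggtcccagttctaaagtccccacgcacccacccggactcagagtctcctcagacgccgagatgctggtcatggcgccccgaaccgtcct
HLA-C: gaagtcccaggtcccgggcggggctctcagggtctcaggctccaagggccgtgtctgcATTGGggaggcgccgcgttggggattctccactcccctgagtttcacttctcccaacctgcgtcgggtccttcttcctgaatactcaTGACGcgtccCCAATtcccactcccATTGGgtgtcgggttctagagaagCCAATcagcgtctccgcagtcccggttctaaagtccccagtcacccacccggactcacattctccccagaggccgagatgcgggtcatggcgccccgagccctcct
PSMB9: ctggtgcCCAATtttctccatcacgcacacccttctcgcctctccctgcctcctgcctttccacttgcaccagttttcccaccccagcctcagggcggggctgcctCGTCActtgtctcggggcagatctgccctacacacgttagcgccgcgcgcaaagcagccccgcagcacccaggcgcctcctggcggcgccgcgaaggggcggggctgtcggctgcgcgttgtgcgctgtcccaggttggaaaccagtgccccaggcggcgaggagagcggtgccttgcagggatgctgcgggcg
TAP1: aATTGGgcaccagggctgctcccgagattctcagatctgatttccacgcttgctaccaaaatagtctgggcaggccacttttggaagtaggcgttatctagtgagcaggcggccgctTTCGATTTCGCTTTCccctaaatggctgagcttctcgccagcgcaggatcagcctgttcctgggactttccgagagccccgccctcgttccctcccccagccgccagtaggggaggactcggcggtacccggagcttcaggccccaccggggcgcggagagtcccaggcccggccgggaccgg

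HLA-B had 1 kappa B match, at positions 74 to 82, and HLA-C had none in its window. Both had the TGACG and CCAAT matches that lie close together before the start. PSMB9 and TAP1 are neighbours read in opposite directions, and their windows share 13 bases, which hold the CCAAT match of both. TAP1 had 2 overlapping interferon element cores on the minus strand of its window, at positions 118 to 126 and 124 to 132, and PSMB9 had none. Over the 8 members, with every start of the table counted, the interferon element core was found in 5 (TAP1, TAP2, TAPBP, PSMB8 and B2M), kappa B in 4 (HLA-B, TAPBP, PSMB8 and B2M), CCAAT in 5, TGACG in 6 and the STAT site in 2 (TAP1 and PSMB8). Of all 35116 promoters of the table, 8.11% held the interferon element core, 6.58% kappa B, 34.6% CCAAT, 24.6% TGACG and 7.66% the STAT site. TAP1 and PSMB8 have a second start in the table, so that they were searched in 2 windows and the others in 1. These matches are a description of letters and do not show binding.

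By length-scaled level (FPKM as deposited), B2M was first of the 9 members in 14 of 16 libraries, with a median of 696 FPKM, and HLA-C was first in the other 2, with a median of 223 FPKM. The exceptions were SW480 ERB library I, with 265 FPKM of B2M and 388 FPKM of HLA-C, and library II labelled SW480 EV, with 125 FPKM of B2M and 323 FPKM of HLA-C. Over the 16 libraries PSMB8 (median 35.4 FPKM), HLA-E (25.2), HLA-B (22.4), TAP1 (16.8), TAPBP (8.38) and PSMB9 (5.22) followed. PSMB8, HLA-E and HLA-B change places between libraries, as do HLA-B and TAP1, and TAPBP and PSMB9, so that these neighbours are not separated beyond their spread. HLA-B ran from 9.22 to 141.6 FPKM and PSMB9 from 0.869 to 48.0 FPKM, whereas TAP1 stayed between 7.81 and 25.5 FPKM. TAP2 is left out of this order: it had 5.76 to 25.5 FPKM per 100 reads, against 1.87 to 2.93 for TAP1, although the TAP2 transcript used for GC content is the longer one (5684 against 2959 bases). Its 2 deposited measures therefore do not give one level per length, and its changes below come from read counts.

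The HLA genes are near-copies of each other, so that reads could be split between HLA-B, HLA-C and HLA-E in the counting and their single values are uncertain to that extent. TAP1, TAP2, PSMB8 and PSMB9 lie side by side, PSMB8 with an antisense neighbour. The library kit kept the strand, but no source used here says whether the counting used it. The part of shared reads in the results was not tested.

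**Figure D2:**
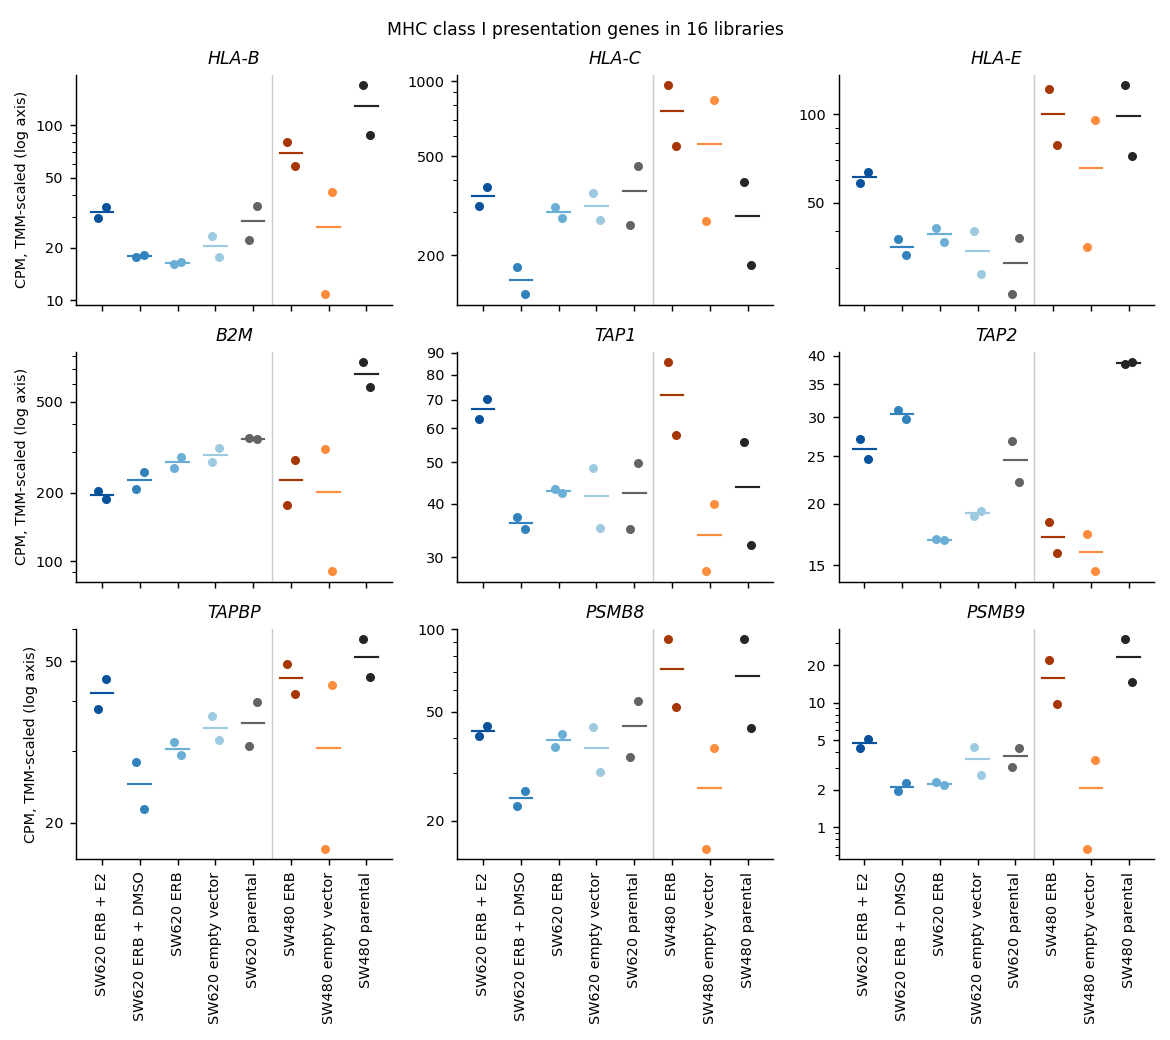
TMM-scaled CPM (vertical, log axis) of the 9 members in each of the 16 libraries (points) with the mean of each group of 2 (line), SW620 groups left of the grey line and SW480 groups right of it. The SW480 parental libraries hold the highest HLA-B, B2M and TAP2 levels, and PSMB9 runs from 0.676 CPM in library I labelled SW480 EV to 32.1 CPM in SW480 parental library I.

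The first comparison asks how the pathway differs between the 2 untransduced lines. HLA-B, HLA-E and PSMB9 were lower in SW620 than in SW480 parental cells, while the values of HLA-C and TAP1 overlapped between the lines. HLA-B, a classical heavy chain, had 22.1 and 34.6 CPM in SW620 libraries, against 169.8 and 88.2 CPM in SW480 libraries. Both SW620 values were below both SW480 values, a log2 fold change of -2.19 ± 0.53 (SE; adjusted p = 0.0139, edgeR quasi-likelihood test), or 4.55-fold lower. HLA-E, a non-classical heavy chain that is read by NK cell receptors, had 24.4 and 38.0 CPM in SW620 libraries and 126 and 71.9 CPM in SW480 libraries, again without overlap (-1.66 ± 0.46, adjusted p = 0.0251). PSMB9 had 3.04 and 4.36 CPM in SW620 libraries, against 32.1 and 14.5 CPM in SW480 libraries, 6.30-fold lower (-2.65 ± 0.66, adjusted p = 0.0147).

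These were the 3 of 9 members called, all of them lower in SW620, where 18% of all genes tested were called in either direction. The median log2 fold change of the 9 members was -0.66, beside -0.05 over all genes. HLA-C had 266 and 458 CPM in SW620 libraries and 395 and 183 CPM in SW480 libraries, so that the groups overlapped (0.32 ± 0.51). TAP1 overlapped as well, with 34.9 and 49.8 CPM in SW620 libraries and 55.8 and 32.0 CPM in SW480 libraries (-0.05 ± 0.34). B2M had 346 and 345 CPM in SW620 libraries and 748 and 579.5 CPM in SW480 libraries, without overlap, and did not pass the test (-0.94 ± 0.44, adjusted p = 0.170). TAP2 (-0.66 ± 0.26), PSMB8 (-0.60 ± 0.46) and TAPBP (-0.54 ± 0.38) did not pass either.

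The GC-adjusted fit called 5 of 9 members, all lower in SW620, where it called 36.8% of all genes. To HLA-B (-2.47 ± 0.20), HLA-E (-1.71 ± 0.26) and PSMB9 (-2.93 ± 0.36) it added TAPBP (-0.51 ± 0.17) and PSMB8 (-0.82 ± 0.21), and it put B2M at -0.30 ± 0.33 and HLA-C at 0.02 ± 0.17. Without the libraries labelled SW480 EV in the fit, 5 of 9 were called, B2M (-0.93) and TAP2 (-0.65) besides the first 3, beside 29% of all genes. On the log2 FPKM scale HLA-B and PSMB9 were called and HLA-E was not, beside 15.9% and 14.5% of all genes (pseudocounts of 1 and 0.1). A fit of these 2 groups alone also called HLA-B and PSMB9 but not HLA-E, beside 9.28% of all genes. HLA-E ran from -1.71 to -0.90 over 10 alternatives. The fit without offsets called none of the 3 when SW620 library I, SW620 library II or SW480 library I was left out, with HLA-B between -2.59 and -1.66, HLA-E between -2.01 and -1.22 and PSMB9 between -3.12 and -1.99 over the 4 fits with 1 library less.

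Ratios of reads within a library do not depend on the scaling between libraries. There were 8.32 and 7.55 HLA-B reads per 100 HLA-C reads in SW620 parental libraries, against 43.0 and 48.1 in SW480 parental libraries. The immunoproteasome subunit PSMB9 gave 8.70 and 8.75 reads per 100 TAP1 reads in SW620 parental libraries, against 57.6 and 45.3 in SW480 parental libraries. PSMB8 gave 15.05 and 15.2 reads per 100 reads of PSMB5, the constitutive subunit that it replaces, in SW620 parental libraries, against 31.6 and 35.1 in SW480 parental libraries. In each ratio the SW480 parental libraries stood above every SW620 library, of which the highest had 12.9 HLA-B per 100 HLA-C, 9.11 PSMB9 per 100 TAP1 and 22.2 PSMB8 per 100 PSMB5 reads.

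**Figure D3:**
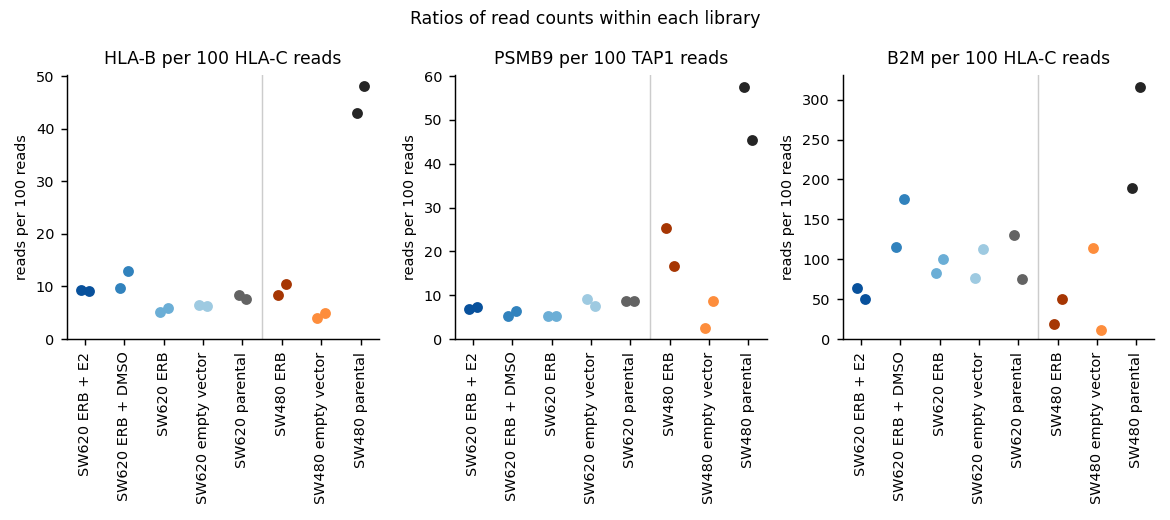
Reads of HLA-B per 100 HLA-C reads, of PSMB9 per 100 TAP1 reads and of B2M per 100 HLA-C reads (vertical, linear from 0) in each of the 16 libraries (points), SW620 groups left of the grey line. The SW480 parental libraries have 43.0 and 48.1 HLA-B and 57.6 and 45.3 PSMB9 reads per 100, above every other library, while the B2M ratio differs widely within groups.

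Of 73 other genes of the pathway on 5 lists, 66 were tested, and between the parental lines 1 was higher and 10 were lower in SW620, beside 18% of all genes called. With offsets 3 of 65 were called higher and 16 lower, beside 36.8% of all genes, and 10 of the 11 calls held. Of 23 interferon and NF-kappa B signalling genes and class I transactivators, 0 were higher and 4 lower. They included SOCS3, an inhibitor of JAK-STAT signalling (-2.45 ± 0.40, adjusted p = 0.00119), the NF-kappa B subunit RELB (-2.56 ± 0.63, adjusted p = 0.0146) and RFXAP, part of the RFX complex at MHC promoters (-1.84 ± 0.55, adjusted p = 0.0365). NLRC5 stood at 5.89 and 7.24 CPM in SW620 parental libraries and 8.27 and 7.11 CPM in SW480 parental libraries, and the 2 groups overlapped.

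In the loading list, 1 of 7 genes was lower, the peptide-trimming ERAP2 (-2.39 ± 0.72), whose SW480 libraries themselves differed, at 1.67 and 7.99 CPM, beside 1.49 and 0.311 CPM in SW620 libraries. ERAP2 was not called in the GC-adjusted fit (-1.13 ± 0.43), which instead called PDIA3, a chaperone of loading, higher (1.08 ± 0.25) and TAPBPL, a relative of tapasin, lower (-0.59 ± 0.17). Of 20 proteasome genes 1 was lower, POMP, a chaperone of proteasome assembly, with 51.7 and 49.6 CPM in SW620 libraries and 194 and 237 CPM in SW480 libraries (-2.09 ± 0.27, adjusted p = 0.000324), and it was also called lower in the GC-adjusted fit. The colon epithelium markers summed to 6666 to 11044 CPM in SW620 parental libraries, against 2913 to 5632 CPM in SW480 parental libraries. Of 7 tested, 3 were called higher, beside 18% of all genes called in either direction. The part of these markers in the result was not tested. Of 11 class I-like genes tested, AZGP1, a secreted relative of class I heavy chains, was higher (3.45 ± 0.40) and ULBP2, a stress ligand of the NKG2D receptor, was lower (-1.91 ± 0.52). MHC class II genes were sparse: 5 of 11 were tested and 3 were lower. CD74, the invariant chain, had 2 reads in either SW620 parental library, against 557 and 435 reads in SW480 parental libraries, and the protease CTSS had 1 read in either SW620 parental library, against 395 and 1140 reads in SW480 parental libraries.

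The effect of the empty vector was read in each line against its parental cells. In SW620 none of the 9 members was called by edgeR, where 0% of all genes was called (276 genes at an unadjusted p under 0.05, and 11 called by DESeq2). None of the 9 passed an unadjusted p of 0.05 and DESeq2 called none. The log2 fold changes ran from -0.47 ± 0.51 for HLA-B to 0.14 ± 0.45 for HLA-E. HLA-B had 23.2 and 17.6 CPM in SW620 EV libraries and 22.1 and 34.6 CPM in SW620 parental libraries, and PSMB9 had 4.41 and 2.64 CPM in EV libraries and 3.04 and 4.36 CPM in parental libraries. Both pairs of groups overlapped. In the GC-adjusted fit the members ran from -0.44 for HLA-B to 0.14 for HLA-E. None was called, beside 0.0876% of all genes. HLA-B alone passed an unadjusted p of 0.05, beside 884 of 17123 genes. When the libraries labelled SW480 EV were left out the members ran from -0.51 to 0.10, with none called. None of the 66 other pathway genes was called, 1 passed an unadjusted p of 0.05 and DESeq2 called none; the GC-adjusted fit called none either, with 3 of 65 at an unadjusted p under 0.05.

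In the libraries labelled SW480 EV, 5 of 9 members were lower than in SW480 parental libraries, beside 30.9% of all genes called. PSMB9 had 0.676 and 3.45 CPM, from 9 and 31 reads, in the libraries labelled SW480 EV, against 32.1 and 14.5 CPM in SW480 parental libraries, 11.6-fold lower (-3.53 ± 0.70, adjusted p = 0.00358). HLA-B had 10.8 and 41.5 CPM in the libraries labelled SW480 EV and 169.8 and 88.2 CPM in SW480 parental libraries (-2.31 ± 0.54, adjusted p = 0.00884). B2M had 312 and 90.2 CPM in the libraries labelled SW480 EV and 748 and 579.5 CPM in SW480 parental libraries (-1.72 ± 0.45, adjusted p = 0.0158).

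TAP2 (-1.28 ± 0.26, adjusted p = 0.00475) and PSMB8 (-1.36 ± 0.47, adjusted p = 0.0461) were the other members called lower. Both EV values of each called member were below both parental values, and how many of all genes were separated in this way was not counted. HLA-C overlapped, with 275 and 839.5 CPM in the libraries labelled SW480 EV and 395 and 183 CPM in SW480 parental libraries (0.95 ± 0.51). The GC-adjusted fit called 8 of 9 members lower, all but HLA-C (0.14 ± 0.17), beside 44.5% of all genes; HLA-B stood at -3.14 ± 0.21, PSMB8 at -1.86 ± 0.22, PSMB9 at -4.13 ± 0.40 and B2M at -0.91 ± 0.34. PSMB8 was not called without library I labelled SW480 EV or without SW480 parental library I, with -0.75 as the smallest change, and HLA-C was called higher without library I labelled SW480 EV (1.53). In a fit of the SW480 libraries alone none of the 9 members was called, beside 4.39% of all genes, and with offsets as well 4 were called lower (HLA-B, TAPBP, PSMB8 and PSMB9), beside 23.6% of all genes.

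The genes that distinguish the parental lines moved in these libraries too, as given above for the 249 SW480 genes, and the vector and that difference cannot be told apart. The libraries had 3.94 and 4.95 HLA-B reads per 100 HLA-C reads, below the lowest SW620 value of 5.16. PSMB9 gave 2.43 and 8.66 reads per 100 TAP1 reads. PSMB8 gave 5.52 and 7.78 reads per 100 PSMB5 reads, below the 15.05 to 22.2 of all SW620 libraries. Mitochondrial genes took 5.87% and 8.78% of reads in the libraries labelled SW480 EV, against 3.43% and 4.39% in SW480 parental libraries. The colon epithelium markers summed to 8650 to 30583 CPM in the libraries labelled SW480 EV, against 2913 to 5632 CPM in SW480 parental libraries. The fibroblast markers summed to 10.1 to 21.9 CPM in the libraries labelled SW480 EV, against 3.64 to 10.6 CPM in SW480 parental libraries. Called higher were 5 of 7 epithelium and 2 of 3 fibroblast markers tested, beside 30.9% of all genes called in either direction. The part of these differences in the result was not tested.

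Of the 66 other pathway genes 5 were higher and 12 lower in the libraries labelled SW480 EV, beside 30.9% of all genes called. With offsets 11 of 65 were called higher and 15 lower, beside 44.5% of all genes; this fit kept 13 of the 17 calls and not those of ERAP1, IFNAR2, JAK2 and POMP. Without offsets they included AZGP1 (3.73 ± 0.41) and the Fc receptor FCGRT (1.96 ± 0.67, and 0.90 ± 0.30 in the GC-adjusted fit) higher, and SOCS3 (-1.92 ± 0.39), the NF-kappa B inhibitor NFKBIA (-1.18 ± 0.28) and NLRC5 (-1.34 ± 0.39) lower. NLRC5 had 2.03 and 4.12 CPM in the libraries labelled SW480 EV, against 8.27 and 7.11 CPM in SW480 parental libraries.

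The difference between the 2 vector effects was tested as SW480 minus SW620. PSMB9 was the 1 member of 9 called (-3.47 ± 0.93, adjusted p = 0.0433), beside 7.2% of all genes. Its vector effect was -3.53 in SW480 and -0.07 in SW620. The GC-adjusted fit called 4 members, HLA-B (-2.70 ± 0.28), TAPBP (-0.97 ± 0.24), PSMB8 (-1.64 ± 0.30) and PSMB9 (-4.11 ± 0.54), beside 26.9% of all genes. Of the 8 fits that left out 1 library, 3 called PSMB9 (without either library labelled SW480 EV, or without SW480 parental library II), and its value ran from -5.04 to -2.69. The test rests on the libraries labelled SW480 EV and cannot be had without them.

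The ERB effect was read in each line against the libraries labelled as its EV cells. In SW620 none of the 9 members was called by edgeR, beside 0.00573% of all genes, none passed an unadjusted p of 0.05 and DESeq2 called none. PSMB9 had 2.29 and 2.18 CPM in SW620 ERB libraries and 4.41 and 2.64 CPM in SW620 EV libraries (-0.65 ± 0.64). HLA-B had 16.1 and 16.6 CPM in SW620 ERB libraries and 23.2 and 17.6 CPM in SW620 EV libraries (-0.32 ± 0.51). In both genes the ERB libraries were below the EV libraries, PSMB9 by about its fitted error and HLA-B by less. HLA-C (-0.09 ± 0.51), B2M (-0.10 ± 0.44) and TAP1 (0.03 ± 0.34) were nearer to 0. In the GC-adjusted fit the members ran from -0.64 for PSMB9 to 0.18 for HLA-E; none was called, beside 0.00584% of all genes, and none passed an unadjusted p of 0.05. When the libraries labelled SW480 EV were left out they ran from -0.65 to 0.19, with none called. None of the 66 other pathway genes was called or passed an unadjusted p of 0.05, and DESeq2 called none of them.

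In SW480 none of the 9 members was called by edgeR in ERB libraries against the libraries labelled SW480 EV, beside 1.1% of all genes. An unadjusted p of 0.05 was passed by 4 of 9, beside 1688 of 17464 genes. DESeq2 called 1, PSMB9, beside 2.23% of all genes. All 9 log2 fold changes were above 0, with a median of 0.61, beside -0.07 over all genes. PSMB9 had 21.8 and 9.70 CPM in SW480 ERB libraries, against 0.676 and 3.45 CPM in the libraries labelled SW480 EV, without overlap (2.97 ± 0.69, adjusted p = 0.0679). HLA-B had 80.6 and 58.2 CPM in SW480 ERB libraries and 10.8 and 41.5 CPM in the libraries labelled SW480 EV (1.41 ± 0.52, adjusted p = 0.373). PSMB8 had 91.7 and 51.9 CPM in SW480 ERB libraries and 15.8 and 36.7 CPM in the libraries labelled SW480 EV (1.45 ± 0.47, adjusted p = 0.265). In each of these genes both ERB values were above both EV values. The 249 SW480 genes stood at 14.1% and 20.0% of the SW480 parental level in SW480 ERB libraries. They stood at 1.75% and 1.65% in the libraries labelled SW480 EV, and ERB and that difference cannot be told apart.

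The GC-adjusted fit called 3 of 9 members higher in SW480 ERB libraries, HLA-B (1.13 ± 0.20), PSMB8 (1.15 ± 0.22) and PSMB9 (2.72 ± 0.40), beside 3.67% of all genes. In a GC-adjusted fit of the SW480 libraries alone none of the 9 was called, beside 0.913% of all genes. Over the 4 fits without offsets and with 1 library less, HLA-B ran from 0.75 to 2.61, PSMB8 from 0.93 to 2.11 and PSMB9 from 2.19 to 4.45. Of the 66 other pathway genes 1 was higher, and it was also called in the GC-adjusted fit: CD74 (4.40 ± 0.78, adjusted p = 0.0205), with 102 and 66 reads in SW480 ERB libraries against 1 and 7 reads in the libraries labelled SW480 EV. The difference of the ERB effects, SW480 minus SW620, called none of the 9 members with edgeR, beside 0.189% of all genes. An unadjusted p of 0.05 was passed by 2 of 9, beside 782 of 17464 genes. DESeq2 called 1, PSMB9 (3.62 ± 0.93 in the edgeR fit), beside 0.676% of all genes. The GC-adjusted fit called 2, HLA-B (1.44 ± 0.28) and PSMB9 (3.36 ± 0.55), beside 0.695% of all genes. Over the 8 fits without offsets and with 1 library less, HLA-B ran from 1.07 to 2.93 and PSMB9 from 2.85 to 5.09. The difference of the ERB effects rests on the libraries labelled SW480 EV as well. There too, ERB and the difference in the SW480 genes cannot be told apart.

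Because of the doubt about the libraries labelled SW480 EV, SW480 ERB libraries were also set against SW480 parental libraries. These comparisons share libraries with those above. The SW480 ERB libraries also differed in the genes that distinguish the parental lines. The 249 SW480 genes stood at 14.1% and 20.0% of the SW480 parental level there, and ERB and that difference cannot be told apart. In the fit without offsets, 3 of 9 members were called, beside 44.4% of all genes: HLA-C was higher, and B2M and TAP2 were lower. HLA-C had 964 and 551 CPM in SW480 ERB libraries, against 395 and 183 CPM in SW480 parental libraries (1.39 ± 0.52, adjusted p = 0.0461). B2M had 176 and 277 CPM in SW480 ERB libraries, against 748 and 579.5 CPM in SW480 parental libraries (-1.55 ± 0.45, adjusted p = 0.0201). TAP2 had 18.4 and 15.9 CPM in SW480 ERB libraries, against 38.6 and 38.8 CPM in SW480 parental libraries (-1.18 ± 0.26, adjusted p = 0.00783).

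The first 2 of these calls did not hold in the GC-adjusted fit, which put HLA-C at 0.17 ± 0.17 and B2M at 0.02 ± 0.33. The tilts were 2.89 and 1.27 in SW480 ERB libraries and -0.40 and -2.39 in SW480 parental libraries. That fit called 5 of 9 members, all lower in ERB libraries, beside 39.4% of all genes: HLA-B (-2.00 ± 0.20), TAP2 (-0.66 ± 0.21), TAPBP (-0.83 ± 0.17), PSMB8 (-0.71 ± 0.21) and PSMB9 (-1.41 ± 0.33). Without offsets HLA-B was at -0.89 ± 0.51, TAPBP at -0.17 ± 0.38, PSMB8 at 0.09 ± 0.46 and PSMB9 at -0.57 ± 0.61. Without the libraries labelled SW480 EV, the fit without offsets called 4 of 9, HLA-B (-0.91) besides the first 3, beside 59% of all genes.

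HLA-C was not called with RLE factors, with a filter of 1 CPM in 4 libraries or on the log2 FPKM scale, and a fit of the SW480 libraries alone called none of the 9, beside 0% of all genes. Leaving out SW480 ERB library I ended all 3 calls, leaving out SW480 parental library II ended those of HLA-C and B2M, and over the 4 fits with 1 library less HLA-C ran from 0.86 to 1.98 and B2M from -1.98 to -1.32. Leaving out SW480 parental library I added TAP1, which was higher. The read ratios are free of scaling, though not of GC content. HLA-B gave 8.36 and 10.6 reads per 100 HLA-C reads, a pair of genes of similar GC content (59.0% and 60.0%), in SW480 ERB libraries, against 43.0 and 48.1 in SW480 parental libraries. PSMB9 gave 25.4 and 16.8 reads per 100 TAP1 reads in SW480 ERB libraries, against 57.6 and 45.3 in SW480 parental libraries. B2M per 100 HLA-C reads, a pair far apart in GC content, stood at 18.3 and 50.3 in SW480 ERB libraries and 189 and 316 in SW480 parental libraries.

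Of the 66 other pathway genes 6 were higher and 18 lower in SW480 ERB than in SW480 parental libraries, a share below the 44.4% of all genes called. With offsets 10 of 65 were called higher and 19 lower, beside 39.4% of all genes, and this fit kept 17 of the 24 calls. Among those it kept, the interferon receptor chains IFNAR1 (-2.44 ± 0.63, and -0.59 ± 0.19 with offsets) and IFNAR2 (-1.37 ± 0.36, and -0.75 ± 0.20) were lower. RFXAP (-2.16 ± 0.57, and -1.27 ± 0.37) and the proteasome core subunits PSMA2 (-2.41 ± 0.54, and -0.90 ± 0.30) and PSMA3 (-2.65 ± 0.66, and -1.31 ± 0.29) were lower as well, and AZGP1 (3.69 ± 0.41, and 3.30 ± 0.24) was higher. The calls of the trimming enzyme ERAP1 (-1.64 ± 0.45, and 0.55 ± 0.25) and of POMP (-1.38 ± 0.27, and 0.74 ± 0.33) were lost and their signs turned. The call of FCGRT (1.93 ± 0.67, and 0.67 ± 0.30) was lost too. The colon epithelium markers summed to 16264 to 29965 CPM in SW480 ERB libraries, against 2913 to 5632 CPM in SW480 parental libraries. The fibroblast markers summed to 12.4 to 13.6 CPM in SW480 ERB libraries, against 3.64 to 10.6 CPM in SW480 parental libraries. Called higher were 6 of 7 epithelium and 2 of 3 fibroblast markers tested, beside 44.4% of all genes called in either direction. Mitochondrial genes took 5.79% and 4.88% of reads in SW480 ERB libraries, against 3.43% and 4.39% in SW480 parental libraries. The part of these differences in the result was not tested.

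Of the MHC class II list, CD74 was lower and had 102 and 66 reads in SW480 ERB libraries and 557 and 435 reads in SW480 parental libraries (-1.68 ± 0.61). CTSS, also lower, had 3 and 20 reads in SW480 ERB libraries and 395 and 1140 reads in SW480 parental libraries, and 0 reads in either library labelled SW480 EV.

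**Figure D4:**
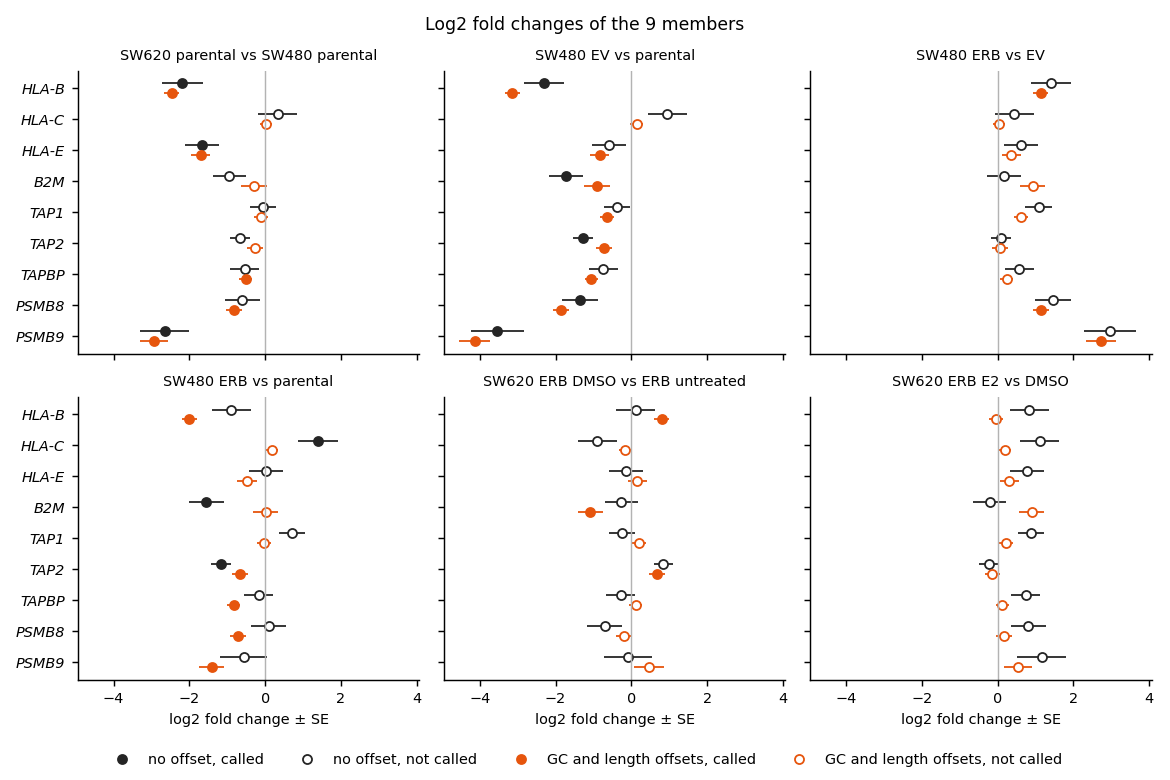
Log2 fold changes of the 9 members (horizontal, with SE bars) in 6 comparisons, from the fit without offsets (black) and the GC-adjusted fit (orange), where filled points were called at an adjusted p under 0.05 and open points were not. HLA-B and PSMB9 of SW620 against SW480 parental cells stay near -2.2 and -2.7 without offsets and -2.5 and -2.9 with them, whereas HLA-C and B2M of SW480 ERB against parental cells move to near 0 in the GC-adjusted fit.

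DMSO is the solvent of estradiol, and SW620 ERB cells with DMSO were set against untreated SW620 ERB cells. None of the 9 members was called by edgeR, beside 6.15% of all genes. An unadjusted p of 0.05 was passed by 1, beside 4880 of 17464 genes. DESeq2 called 1, TAP2, beside 15.2% of all genes. TAP2 had 31.1 and 29.7 CPM in DMSO libraries, against 17.0 and 16.9 CPM in untreated libraries, without overlap (0.85 ± 0.26, adjusted p = 0.0710). HLA-C had 180.0 and 140.0 CPM in DMSO libraries, against 312 and 283 CPM in untreated libraries, also without overlap (-0.90 ± 0.51). HLA-B had 17.5 and 18.0 CPM in DMSO libraries and 16.1 and 16.6 CPM in untreated libraries (0.12 ± 0.51).

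The GC-adjusted fit called 3 of 9 members, beside 22.6% of all genes: HLA-B (0.80 ± 0.20) and TAP2 (0.67 ± 0.21) were higher and B2M (-1.08 ± 0.34) was lower in DMSO libraries. HLA-C stood at -0.17 ± 0.17 in that fit. Without the libraries labelled SW480 EV, the fit without offsets called 1 member, TAP2 (0.92 ± 0.21, adjusted p = 0.0171), beside 19.9% of all genes. There were 9.74 and 12.9 HLA-B reads per 100 HLA-C reads in DMSO libraries, against 5.16 and 5.86 in untreated libraries. HLA-E gave 21.0 and 23.7 reads per 100 HLA-C reads in DMSO libraries, against 13.2 and 13.0 in untreated libraries. In both ratios the DMSO libraries stood above the untreated ones. The colon epithelium markers summed to 3480 to 4045 CPM in DMSO libraries, against 10618 to 10811 CPM in untreated libraries, and their part in the result was not tested.

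Among the 66 other pathway genes 1 was higher and 4 were lower in DMSO libraries, beside 6.15% of all genes called. The GC-adjusted fit kept all 5 calls and called 3 of 65 higher and 10 lower, beside 22.6% of all genes. ULBP1, a stress ligand of NKG2D, had 27.3 and 25.1 CPM in DMSO libraries, against 0.904 and 1.57 CPM in untreated libraries (4.39 ± 0.67, adjusted p = 0.00763). MICB, another ligand of the same receptor, was lower (-1.37 ± 0.29), as were the chaperone calreticulin (CALR, -1.44 ± 0.33), the proteasome activator subunit PSME3 (-1.31 ± 0.28) and the core subunit PSMB2 (-1.14 ± 0.27).

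Estradiol for 24 h was compared with DMSO in SW620 ERB cells. None of the 9 members was called by edgeR, beside 0% of all genes (3469 genes at an unadjusted p under 0.05, and 74 called by DESeq2). Of the members TAP1 alone passed an unadjusted p of 0.05 and DESeq2 called none. For 7 members both E2 values were above both DMSO values, and for B2M and TAP2 both E2 values were below both DMSO values. How many of all genes were separated in this way was not counted. In a fit of these 2 groups alone 7 members were called, beside 63.6% of all genes. HLA-C had 316 and 375 CPM in E2 libraries and 180.0 and 140.0 CPM in DMSO libraries (1.11 ± 0.52, adjusted p = 0.238). TAP1 had 63.1 and 70.1 CPM in E2 libraries and 37.3 and 34.9 CPM in DMSO libraries (0.88 ± 0.35, adjusted p = 0.238). PSMB9 had 4.34 and 5.07 CPM in E2 libraries and 1.96 and 2.25 CPM in DMSO libraries (1.16 ± 0.64, adjusted p = 0.250).

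In the GC-adjusted fit of all libraries none of the 9 was called, beside 0% of all genes (2014 genes at an unadjusted p under 0.05). There B2M (0.90 ± 0.34) alone passed an unadjusted p of 0.05, HLA-B stood at -0.04 ± 0.19, HLA-C at 0.19 ± 0.17, TAP1 at 0.22 ± 0.18 and PSMB9 at 0.54 ± 0.37. Without the libraries labelled SW480 EV, the fit without offsets called none of the 9, beside 0% of all genes, and the members ran from -0.30 to 1.09.

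The calls of the members changed with the libraries in the fit and with the offsets. In a fit of the SW620 libraries alone, 7 of 9 members were called, all higher with E2 (HLA-C 1.12 ± 0.24, TAP1 0.89 ± 0.20, PSMB9 1.17 ± 0.30), beside 53% of all genes. In the same fit with GC and length offsets, 1 of 9 was called, beside 18.1% of all genes, and it was B2M (0.93 ± 0.17). There HLA-C stood at 0.16 ± 0.10, HLA-B at -0.06 ± 0.12, TAP1 at 0.19 ± 0.11 and PSMB9 at 0.52 ± 0.22. B2M was at -0.20 ± 0.16 without offsets, with 204 and 188 CPM in E2 libraries and 207 and 245 CPM in DMSO libraries.

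Read ratios were also compared between E2 and DMSO libraries. HLA-B gave 9.31 and 9.10 reads per 100 HLA-C reads in E2 libraries, against 9.74 and 12.9 in DMSO libraries, and PSMB8 gave 20.7 and 22.2 reads per 100 PSMB5 reads in E2 libraries, against 22.1 and 22.2 in DMSO libraries. PSMB9 gave 6.87 and 7.24 reads per 100 TAP1 reads in E2 libraries, against 5.25 and 6.45 in DMSO libraries. None of the 66 other pathway genes was called, 7 passed an unadjusted p of 0.05 and DESeq2 called none; the GC-adjusted fit called none of 65, with 7 at an unadjusted p under 0.05. ULBP1 had 15.9 and 13.0 CPM in E2 libraries, beside 27.3 and 25.1 CPM in DMSO libraries.

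Over the 8 group means, the members followed a shared profile to different degrees. The correlation (Pearson's r over 8 groups of log2 CPM) with the mean of the other 8 members was 0.98 for PSMB9, 0.96 for HLA-B, 0.95 for TAPBP, 0.90 for PSMB8 and 0.75 for HLA-E. It was 0.53 for TAP1, 0.48 for B2M, 0.29 for TAP2 and 0.26 for HLA-C. These profiles carry the GC tilt of the libraries as well, and r is a description. Among 10789 other genes that averaged at least 5 CPM over the libraries, those most like the members' mean profile were RAB11FIP5 (r = 0.98), FAM131A (0.97), the interferon-induced IFI35 (0.97), CBX7 (0.97) and APBB1 (0.97). In these bulk libraries, fewer cells that express a member and less of its RNA per cell cannot be told apart.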

How the data were processed

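Per the labels' protocols, a stranded kit was used to make libraries of poly(A) RNA. Per gene and library, the authors deposited 1 table of read counts and 1 of FPKM values (reads per length and depth of the library), with 0 further columns of sample values. The submitters' processing notes list build GRCh37 and the tools Cufflinks 2.1.1, HTSeq 0.6.1, TopHat2 2.0.4, Picard 1.29 and SAMtools, without saying what each one made. Deposited counts were whole numbers with differing totals and were treated as raw.

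The 9 members, the 5 pathway lists and the marker lists were chosen with earlier results of these data known. Named genes were all members, ESR2, up to 3 called genes per list and comparison with the smallest p, and the 5 genes most like the members; NLRC5, and genes named beyond that, were chosen after their values were seen. Counts were filtered with filterByExpr, scaled with TMM factors (0.585 to 1.36) and fitted with edgeR 4.0.16 (R 4.3.3) over all 16 libraries, 8 groups, without a block. Adjusted p-values are two-sided, by Benjamini-Hochberg over all 17464 genes within a comparison, and a gene was called under 0.05. GC content and length (17123 of these genes) came from the longest coding transcript of a GRCh38 annotation; offsets used natural splines with 5 degrees of freedom. Alternatives were RLE factors, other filters, DESeq2 1.42.0, limma 3.58.1 (voom, and log2 FPKM with pseudocounts of 1 and 0.1), a replicate block, fewer groups, and leaving out libraries, where a lone library was taken to vary as other groups do. Leaving out the libraries labelled SW480 EV was added after seeing the data. The fit was also run on simulated counts with known changes. These were drawn from a shared mean per gene, without a GC tilt and without libraries that depart from their label. They therefore cannot show how the fit behaves with those features of the data. Depth was 12743940 to 18948283 reads, and read counts under about 10 have wide counting error.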

Additional observations from a re-analysis of the deposited data

Results flagged for a closer look

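In the fit without offsets PSMB9, an immunoproteasome subunit, was the 1 member whose vector effect differed between the lines by a test of the difference itself (SW480 minus SW620, -3.47 ± 0.93, SE; edgeR adjusted p = 0.0433, with 0.000157 to 0.130 over the alternatives that kept all libraries of the comparison). The GC-adjusted fit called 4 members, HLA-B, TAPBP, PSMB8 and PSMB9, beside 26.9% of all genes. None was called with RLE factors or a replicate block, beside 7.18% and 3.37% of all genes. Without offsets the log2 effect of PSMB9 was -3.53 in SW480 and -0.07 in SW620. It rests on 9 and 31 reads in the libraries labelled SW480 EV, against 520 and 332 reads in SW480 parental libraries. The same libraries stood at 1.75% and 1.65% of the SW480 parental level for the 249 genes high in SW480, and the vector and that difference cannot be told apart.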

How the results depend on the processing

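Counts of called members, of 9, changed with the processing as follows. With GC and length offsets they were 5 between the parental lines (beside 36.8% of all genes). Against SW480 parental they were 8 for SW480 EV (44.5%) and 5 for SW480 ERB (39.4%). For SW480 ERB against EV they were 3 (3.67%), and for DMSO 3 (22.6%). They were 2 for the difference of ERB effects (0.695%) and 4 for that of vector effects (26.9%). Without the libraries labelled SW480 EV they were 5 between the parental lines (beside 29% of all genes) and 1 for DMSO (19.9%), and with offsets as well 5 between the parental lines (44.8%), 6 for SW480 ERB against parental (47.7%) and 3 for DMSO (31.6%). In fits of 1 line alone they were 0 for SW480 EV (4.39%) and 0 for SW480 ERB against parental (0%), 3 for DMSO (beside 48.8% of all genes) and 7 for estradiol (53%); with offsets they were 4 for SW480 EV against parental (23.6%), 0 for SW480 ERB against EV (0.913%), 1 for SW480 ERB against parental (14.5%), 3 for DMSO (47.8%) and 1 for estradiol (18.1%). Fits of the 2 groups alone gave 1 for SW480 EV (7.74% of all genes) and 0 for SW480 ERB against parental (25.6%), 3 for DMSO (63.7%) and 7 for estradiol (63.6%). DESeq2 gave 1 for SW480 ERB against EV (beside 2.23% of all genes) and 1 for DMSO (15.2%). It gave 1 for the difference of ERB effects (0.676%) and 2 for that of vector effects (15.9%). Limma-voom gave 1 for SW480 ERB against EV (2.14%), and RLE factors gave 0 for the difference of vector effects (7.18%). Without a filter on low counts there was 1 for SW480 ERB against EV, 1 for estradiol, 1 for the difference of ERB effects and 3 for that of vector effects, and a filter of 1 CPM in 4 libraries gave 1 for DMSO. Log2 FPKM with pseudocounts of 1 and of 0.1 gave 2 and 2 for SW480 ERB against EV (beside 1.44% and 1.69% of all genes). It gave 1 and 1 for the difference of ERB effects (0.527% and 0.515%). For the difference of vector effects it gave 3 and 3 (9.05% and 8.76%).

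Fits with 1 library less leave a lone library in a group, so that sizes of change alone are given here. PSMB9 ran from -3.12 to -1.99 between the parental lines and from -5.10 to -2.76 for SW480 EV against parental. For SW480 ERB it ran from 2.19 to 4.45 against EV and from -1.33 to 0.05 against parental. In SW620 it ran from -0.48 to 0.26 for EV against parental and from -0.98 to -0.24 for ERB against EV. For DMSO it ran from -0.18 to 0.01, and for estradiol from 1.05 to 1.27. Its difference of ERB effects ran from 2.85 to 5.09 and that of vector effects from -5.04 to -2.69. HLA-C ran from -0.13 to 0.96 between the parental lines and from -0.09 to 1.59 for SW480 EV against parental. The libraries numbered alike did not deviate in one common direction. Over 28 pairs of groups the correlation of their deviations ran from -0.74 to 0.66. It was over 0.1 in 9 pairs and under -0.1 in 12, which cannot show whether they share more than a number. With the number as a replicate block, 0 members were called between the parental lines (beside 8.0% of all genes). For the difference of vector effects 0 were called as well (3.37%).

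Of 1116 values of members under alternatives that kept all libraries of a comparison, 53 had the opposite sign of the fit without offsets: 30 of them under offsets for GC content and length, 18 on the log2 FPKM scale and 5 under other settings. In 7 of the 53 the value was called in at least 1 of the 2 fits, and these were all under offsets. For SW480 ERB against parental, B2M was 0.016 with all libraries, 0.066 in SW480 alone and 0.010 without the libraries labelled SW480 EV, PSMB8 was -0.71 with all libraries and -0.72 without those libraries, and HLA-E was -0.48 without them. For estradiol B2M was 0.93 in SW620 alone. Among values called in neither fit, for estradiol B2M was 0.90 and HLA-B -0.04 under offsets with all libraries, TAP2 was 0.19 and 0.20 on the log2 FPKM scale with pseudocounts of 1 and of 0.1, and for DMSO B2M, TAP1, TAPBP and PSMB9 were above 0 on the log2 FPKM scale and TAP1, HLA-E, TAPBP and PSMB9 under offsets, against values below 0 without them. The offsets themselves are the change of setting, and the cause of the tilt was not tested. With 2 libraries a group, the SE of a member's log2 fold change was 0.258 to 0.932 without offsets and 0.167 to 0.548 with them. Changes under about 2-fold were often not detectable, and much larger ones could go uncalled. Without offsets, PSMB9 was 7.81-fold higher in SW480 ERB than in EV libraries and was not called (edgeR adjusted p = 0.0679). HLA-B (2.66-fold) and PSMB8 (2.73-fold) were not called there either.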

Other observations

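Of the relatives of class I heavy chains outside the 9 members, AZGP1 and ULBP1 also separated groups. Of 11 such genes tested without offsets, 1 was called higher and 1 lower between the parental lines, beside 18% of all genes. Against SW480 parental, 2 were higher and 0 lower for SW480 EV (30.9%), and 2 higher and 1 lower for SW480 ERB (44.4%). For DMSO 1 was higher and 1 lower (6.15%), and for the difference of vector effects 1 was higher and 0 lower (7.2%). AZGP1, a secreted relative, had 93.3 and 64.2 CPM in SW480 ERB libraries and 55.4 and 106.5 CPM in the libraries labelled SW480 EV, against 7.16 and 5.02 CPM in SW480 parental libraries, and 36.5 to 81.0 CPM in the 10 SW620 libraries. ULBP1, a ligand of the NKG2D receptor, had 15.9 and 13.0 CPM in SW620 ERB libraries with estradiol and 27.3 and 25.1 CPM with DMSO, against 0.904 and 1.57 CPM in untreated SW620 ERB libraries. In the 12 other libraries, which include the untreated ones, ULBP1 stayed between 0.342 and 4.01 CPM. AZGP1 and ULBP1 were singled out after their values were seen.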
